A study of Mus musculus with 6 samples.

Results

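The genes described here are the 5 subunits of the transcription factor AP-1 measured on the array: Jun, Junb and Jund of the Jun family, and Fosl1 and Fosl2 of the Fos family. They were chosen by the gene symbol that the platform annotation gives each probe, which found 1 probe for each of the 5 genes among 223 probes, 205 of them with a named gene. The samples were soleus, a postural muscle of the hindlimb, from C57Bl/6 mice titled wild type, in which the muscle had been reloaded for 1 day. RNA from cryosections was used, 3 micrograms for each array, and there was 1 array for each of 6 replicates. All 6 arrays belong to this single group, so levels and their spread between samples can be described, but no change caused by reloading can be. The labels do not say that the replicates are 6 animals, so the spread and the permutation p-values may reflect technical differences between arrays.

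AP-1 is a dimer of proteins with a basic DNA-binding region and a leucine zipper. Jun proteins pair with each other or with a Fos protein, whereas Fos proteins need a Jun partner, and the dimers bind DNA at the sequence TGACTCA and close variants. Jun, Junb and several Fos genes are classical immediate early genes, induced by growth factors, cytokines and mechanical load, while Jund is known for a steadier level in resting cells. The protein made from Fosl1 is known as Fra-1 and that from Fosl2 as Fra-2.

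The deposited values were linear intensities that went slightly below 0, so some background had been subtracted. Summed over all probes they ranged from 13.8 on replicate 6 to 165.3 on replicate 1, with the other 4 arrays between 35.2 and 41.3. Relative intensity is therefore used below: the deposited value divided by the median, on the same array, of the 175 probes that were above 0 on all 6 arrays. The size of the most negative value on an array serves as its noise bound. Levels of different probes are not compared as amounts of transcript, because probes differ in how brightly they hybridise. In whole muscle, fewer cells of a type and less RNA per cell cannot be told apart.

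The stretches just before the annotated start of the member genes are shown for comparison of their DNA. A link between these sequences and the levels on the arrays was not tested. The RefSeq promoter table (GRCm38.p6) held an entry for 4 of the 5 genes, and each line gives the 120 bases before the start, 5′ to 3′ on the gene's own strand, with matches to the searched motifs in capitals. Jun lies on the minus strand at chr4:95052223-95052342, Junb on the minus strand at chr8:84978749-84978868, Jund on the plus strand at chr8:70697619-70697738, and Fosl2 on the plus strand at chr5:32136352-32136471.
Jun: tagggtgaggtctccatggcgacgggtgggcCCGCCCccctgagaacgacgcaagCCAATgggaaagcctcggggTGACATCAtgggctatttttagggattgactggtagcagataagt
Junb: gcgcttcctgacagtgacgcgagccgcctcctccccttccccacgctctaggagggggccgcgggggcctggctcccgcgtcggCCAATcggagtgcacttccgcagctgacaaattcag
Jund: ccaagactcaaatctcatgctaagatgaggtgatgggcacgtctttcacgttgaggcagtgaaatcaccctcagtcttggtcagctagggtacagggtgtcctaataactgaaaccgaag
Fosl2: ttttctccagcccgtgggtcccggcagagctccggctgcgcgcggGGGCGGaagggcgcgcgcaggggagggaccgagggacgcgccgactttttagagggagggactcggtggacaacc

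The search covered both strands of the 300 bases from 250 before to 50 after each start, for 7 motifs that do not contain one another. TGACATCA, the AP-1-like element through which Jun is known to act on its own gene, matched in the Jun window alone, at positions -45 to -38 counted from the base before the start as -1. That element occurs in 3.62% of the 32851 RefSeq windows of this length. CCAAT matched in Jun and Junb (37.4% of all windows), GGGCGG in Jun on the opposite strand and in Fosl2 (35.7%), and TATAAA in Junb after the start (13.6%). TGACTCA (5.20% of windows), TGACGTCA (1.79%) and the CArG box, the site of serum response factor (1.63%), matched in 0 of the 4 windows. In the 250 bases before the start, G and C made up 61.2% in Jun, 66.4% in Junb, 64.4% in Fosl2 and 47.6% in Jund. A match is a run of letters and not a shown binding site.

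Of the 5 members, Jun, Jund and Fosl2 exceeded the noise bound on every array, Fosl1 did so on 4 of 6 and Junb on 0 of 6. Thus 3 of 5 members were above the bound on all arrays, where 58.3% of all 223 probes were, and 4 of 5 were above 0 on all arrays, where 78.5% of probes were. Junb was 1 of the 13.5% of probes that stayed at or below the bound on all 6 arrays. With 5 members these shares do not set the family apart from the rest of the array.

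**Figure D1:**
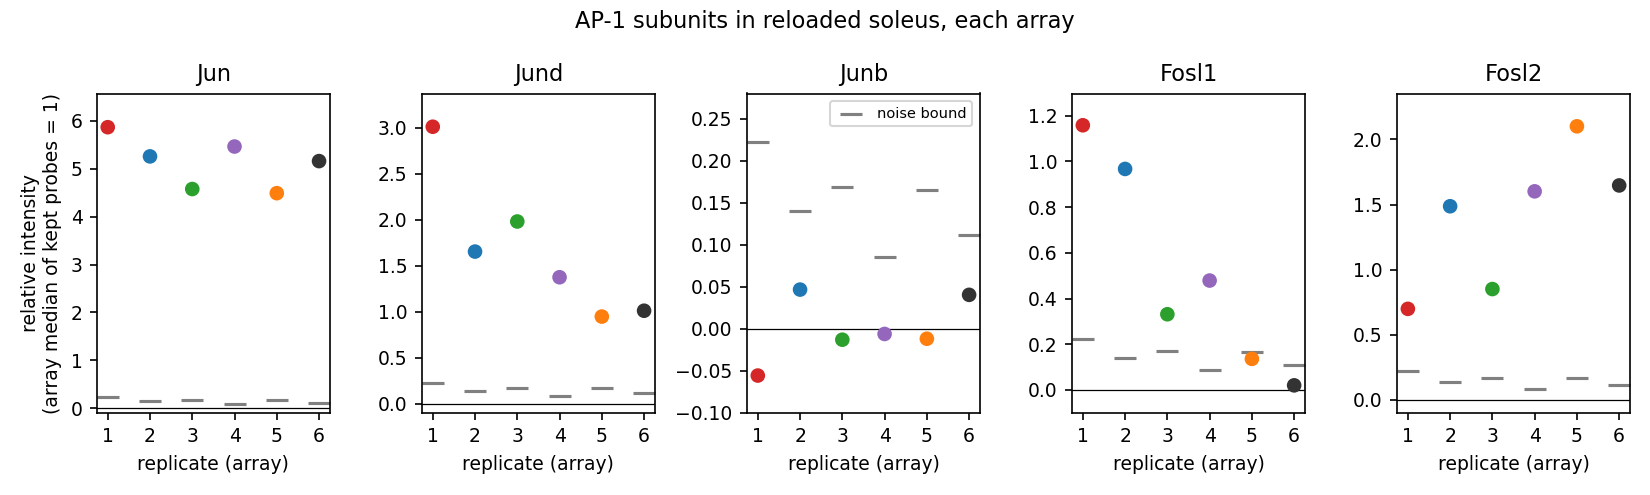
Relative intensity (array median of kept probes = 1; vertical scales differ) of each AP-1 subunit on each of the 6 arrays, with 1 point for each array and a grey bar for that array's noise bound. Jun lies between 4.49 and 5.87 on every array, Jund and Fosl2 order the arrays in opposite ways on this scale (not without scaling or scaled to 28S), Junb lies under the bound throughout, and Fosl1 falls under it on replicates 5 and 6.

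Jun, the subunit after which the family is named, was the most even member when each array was divided by its median. Its relative intensity was 5.87, 5.26, 4.58, 5.47, 4.49 and 5.16 on replicates 1 to 6, and each value was at least 26.4 times the noise bound of its array. Jun thus differed little between arrays on this scale. Only 1 of the 175 kept probes had a smaller SD than Jun, 0.15 log2 units against a median of 0.64 over all kept probes. Under quantile normalization its SD was 0.27, and 9.14% of kept probes had a smaller one. The evenness depended on the scaling: in deposited units Jun ranged from 0.0511 on replicate 6 to 0.380 on replicate 1, a 7.43-fold difference. With arrays scaled to the 28S ribosomal RNA probe the SD of its log2 values was 0.78, and with no scaling it was 1.02, where Fosl2 was the most even member at 0.57 and 0.67.

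Jund, the Jun family member known for growth restraint, varied more and was highest on replicate 1. Its relative intensity was 3.01, 1.65, 1.98, 1.37, 0.947 and 1.01 on replicates 1 to 6, at 5.71 to 16.0 times the noise bound. Replicates 5 and 6 were low and close together, and replicate 3 was the second highest. On the log2 scale the level was 0.62 ± 0.63 (SD, n = 6), a 3.18-fold range, and 47.4% of kept probes had a smaller SD. Without replicates 1 and 6, which had the highest and the lowest summed intensity, the range was 2.09-fold. The SD was 1.19 with arrays scaled to 28S and 1.47 with no scaling.

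Junb, which is known to support muscle mass in adult fibres, could not be assigned a level. Its deposited values were -0.0036, 0.0007, -0.0002, -0.0001, -0.0002 and 0.0004 on replicates 1 to 6, against noise bounds of 0.0144, 0.0021, 0.0026, 0.0014, 0.0028 and 0.0011. All 6 values were therefore smaller than the noise of their array, and 4 of them were below 0. The bound corresponded to a relative intensity of 0.0859 on replicate 4, the most sensitive array, and 0.223 on replicate 1. A Junb signal below these levels was not detectable here, which does not show that the transcript was absent.

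Fosl1, the gene of Fra-1, was the most uneven member, and its lowest values lay in the noise. Its relative intensity was 1.16, 0.967, 0.331, 0.479, 0.136 and 0.0202 on replicates 1 to 6. Replicates 1 and 2 were high, at 5.20 and 6.90 times the noise bound, and replicates 5 and 6 were at 0.82 and 0.18 times it. The SD of 2.17 log2 units (n = 6) exceeded that of 97.7% of kept probes. It rests partly on replicate 6, whose deposited value was 0.0002, and was 1.25 without that array. Among replicates 2 to 5 Fosl1 ranged 7.10-fold, between replicate 2 and replicate 5, of which the latter was below its bound.

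Fosl2, the gene of Fra-2, had a spread like that of Jund but placed the arrays in the opposite order, on the median-centred scale though not without scaling or scaled to 28S. Its relative intensity was 0.699, 1.49, 0.851, 1.60, 2.10 and 1.65 on replicates 1 to 6, at 3.14 to 18.6 times the noise bound. Replicates 1 and 3, the 2 highest for Jund, were the 2 lowest for Fosl2, and replicate 5, the lowest for Jund, was the highest. On the log2 scale the level was 0.38 ± 0.62 (SD, n = 6), a 3.01-fold range, and 46.9% of kept probes had a smaller SD. In deposited units Fosl2 ranged 3.45-fold, from 0.0131 on replicate 3 to 0.0452 on replicate 1, whereas Jund ranged 19.5-fold and Jun 7.43-fold. The high summed intensity of replicate 1 was thus matched less by Fosl2 than by either Jun gene.

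The balance of Jund to Fosl2 shifted 9.56-fold between samples. The ratio of 2 probes within an array does not depend on how whole arrays are scaled to each other, and its changes can be read although its size cannot. With the lowest array, replicate 5, set to 1, the ratio of Jund to Fosl2 was 9.56, 2.47, 5.17, 1.90, 1 and 1.36 on replicates 1 to 6. Replicates 1 and 3 were high and replicates 5 and 6 low. Allowing noise of the size of the bound in both probes on the highest and the lowest array left a 5.26-fold shift. Without replicates 1 and 6 it was 5.17-fold, between replicates 3 and 5, whose summed intensities were 41.3 and 35.5. The array with the highest sum, 165.3, also had the highest ratio, but that with the lowest sum, 13.8 on replicate 6, did not have the lowest. The part of overall signal in this shift was not tested. The SD of the log2 ratio was 1.22, and 35.3% of all pairs of kept probes had a larger one, so a shift of this size was not unusual on these arrays.

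**Figure D2:**
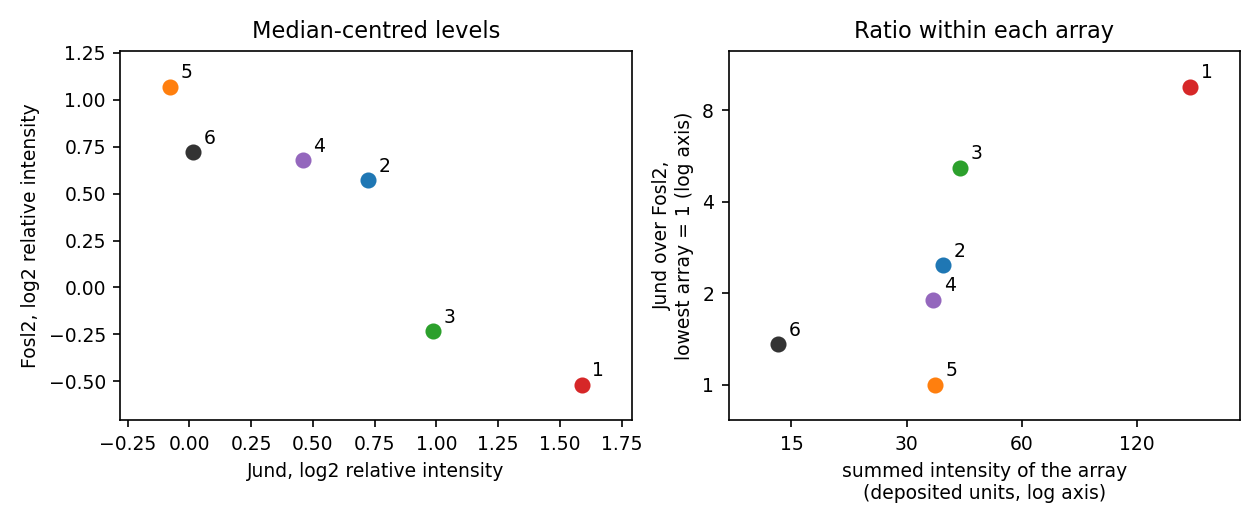
Left, median-centred log2 relative intensity of Fosl2 against Jund, with 1 numbered point for each of the 6 arrays; right, the ratio of Jund to Fosl2 within each array (lowest array = 1) against the array's summed intensity, both on log axes. On this scale, though not without scaling or scaled to 28S, Fosl2 decreases at each step of increasing Jund, and the ratio reaches 9.56 on replicate 1 and 5.17 on replicate 3.

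On the median-centred scale Jund and Fosl2 gave Pearson's r = -0.94 in these 6 samples (exact permutation p = 0.00139, two-sided). Their ranks were exactly opposed, with Spearman's rho = -1 and an exact permutation p of 0.00278. Adjusted by Benjamini and Hochberg over all 15225 pairs of kept probes the exact permutation p-values were 0.128 and 0.149, so the relation did not pass the threshold of 0.05. The unadjusted values are the smallest that 6 arrays allow for each measure. Of all 15225 pairs 0, or 0%, passed after adjustment, while an unadjusted exact permutation p at or under 0.05 was reached by 8.09% of pairs with a negative and 11.2% with a positive r. Of all pairs, 1.46% had a lower r than Jund and Fosl2. Without replicates 1 and 5, the farthest from the Jund median, r was -0.79, and without replicates 1 and 6 it was -0.91. The sign depends on the scaling, since r was 0.18 with arrays scaled to 28S and 0.57 with no scaling. Without scaling the overall signal of an array enters both genes. The 28S probe ranged from 1.35 on replicate 4 to 3.83 on replicate 1, whereas summed intensity ranged from 13.8 to 165.3. Scaling to 28S thus left part of the difference in summed intensity in place. The 28S values were deposited in whole hundredths on all 6 arrays.

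On the median-centred scale the other 5 pairs of members measured above 0 did not reach an unadjusted exact permutation p of 0.05, and no call is made from them. Without scaling, where overall signal enters every gene, Jun and Jund gave r = 0.96 (exact permutation p = 0.0208, adjusted 0.089), Jund and Fosl1 0.87 (exact permutation p = 0.0403, adjusted 0.112), and Jun and Fosl2 0.74 (exact permutation p = 0.0486, adjusted 0.122). With arrays scaled to 28S, Jun and Jund gave r = 0.92 (exact permutation p = 0.00278, adjusted 0.0514) and Jund and Fosl1 0.84 (exact permutation p = 0.0444, adjusted 0.139), so none passed after adjustment there either. On the median-centred scale Jund and Fosl1 gave r = 0.76 (rho = 0.77, exact permutation p = 0.0736 and 0.103, which were 0.306 and 0.400 after adjustment over all pairs). That r was 0.78 without replicates 1 and 5, the farthest from the Jund median, and 0.48 without replicates 5 and 6, the farthest from the Fosl1 median and the arrays on which Fosl1 was under its bound. Jun gave r = 0.53 with Jund, 0.41 with Fosl1 and -0.37 with Fosl2, with exact permutation p between 0.296 and 0.481 (adjusted 0.571 to 0.715). Their rho values were 0.60, 0.77 and -0.60 (exact permutation p = 0.242, 0.103 and 0.242, adjusted 0.566, 0.400 and 0.566). Without replicates 3 and 5, the farthest from the Jun median, these r values were 0.90, 0.65 and -0.91, but without replicates 1 and 5, the farthest from the Jund median, Jun and Jund gave -0.57. Fosl1 and Fosl2 gave r = -0.51 and rho = -0.77 (exact permutation p = 0.299 and 0.103, adjusted 0.574 and 0.400), and r = -0.12 without replicates 5 and 6.

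The ratios within arrays showed how unevenly the members moved. Jun to Jund shifted 2.62-fold, the least of the 6 pairs, from lowest on replicate 1 to highest on replicate 6, and 80.5% of all probe pairs had a larger SD of the log2 ratio. Jun to Fosl2 shifted 3.93-fold, from replicate 5 to replicate 1. In pairs with Fosl1, with values under the noise bound set to it, the shift was 9.16-fold against Jun, 5.32-fold against Jund and 24.6-fold against Fosl2. With noise allowed in both probes these fell to 5.90-fold, 3.16-fold and 11.9-fold. When values under the bound were set to it, only the shift of Fosl1 to Fosl2 exceeded the 9.56-fold shift of Jund to Fosl2. With noise allowed in both probes, the shift of Jun to Fosl1 (5.90-fold) also exceeded that of Jund to Fosl2 (5.26-fold).

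Genes whose level tracked each member were found by the SD of the log2 ratio to that member over the 6 arrays, among the other 161 genes above 0 on all arrays. The nearest to Jun were Itgb5, an integrin chain, with an SD of 0.18, Ucp3, a mitochondrial carrier of muscle, with 0.20, and Ppara, a nuclear receptor that governs fatty acid oxidation, with 0.21. Their r with Jun was 0.20, 0.43 and 0.88, so Itgb5 and Ucp3 shared the evenness of Jun more than its order of arrays. Under quantile normalization 1 of these 3 genes, Itgb5, was still among the 3 nearest.

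The nearest to Jund were Dmpk, the kinase gene mutated in myotonic dystrophy (SD 0.15), Itgb1, the main integrin beta chain of muscle (0.16), and Igf2r, the receptor that clears IGF2 (0.21). Their ratios to Jund shifted 1.32-fold, 1.38-fold and 1.45-fold over arrays on which Jund itself ranged 3.18-fold, and r was 0.97, 0.98 and 0.95. Among all kept genes the median SD of the log2 ratio to Jund was 0.72. Under quantile normalization Dmpk and Igf2r stayed among the 3 nearest.

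The nearest to Fosl2 were Pecam1, an adhesion molecule of endothelium (SD 0.33), Ghr, the growth hormone receptor (0.33), and Lamb2, a laminin chain of the synaptic basement membrane (0.35). Their r with Fosl2 was 0.84, 0.94 and 0.85, and the median SD over all genes was 0.98. For Fosl1 they were Adam2, a gene known for its role in sperm (0.89), Plaur, the urokinase receptor (1.02), and Csf2ra, a chain of the receptor for GM-CSF (1.04). These 3 were above the noise bound on 4, 4 and 5 arrays, so their likeness to Fosl1 rests partly on values in the noise. With only genes above the bound on all arrays, the nearest to Fosl1 were Cd44, Mmp10 and Hmox1.

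**Figure D3:**
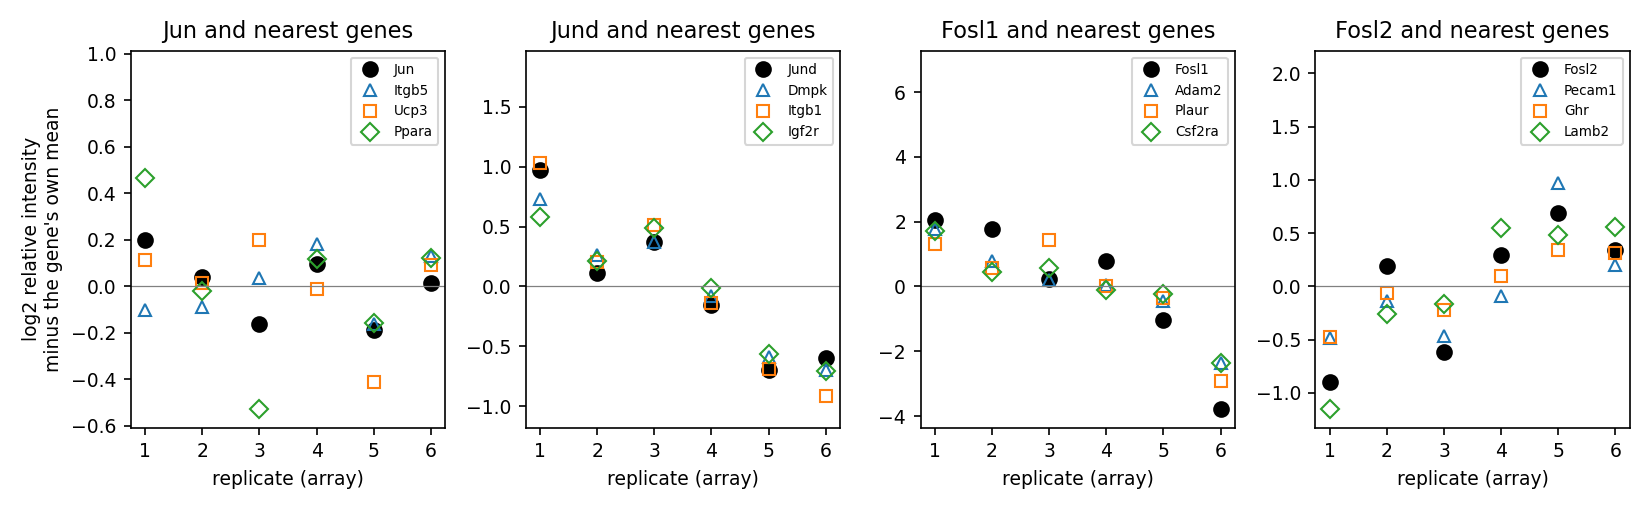
Log2 relative intensity minus the gene's own mean on each of the 6 arrays, for Jun, Jund, Fosl1 and Fosl2 (filled black circles) and the 3 genes nearest to each (open symbols; vertical scales differ). Dmpk, Itgb1 and Igf2r lie close to Jund on every array, with SDs of the log2 ratio from 0.15 to 0.21, while those nearest to Fosl1 have SDs from 0.89 to 1.04.

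Of 161 genes, 28 reached an unadjusted exact permutation p at or under 0.05 with Jund at a positive and 32 at a negative r. The counts were 39 and 19 for Fosl1, 21 and 13 for Fosl2, and 1 and 2 for Jun, and 0 passed after adjustment over all pairs for any of the 4. Over all 15225 pairs of kept probes, 11.2% reached the unadjusted threshold at a positive and 8.09% at a negative r. The counts for Fosl2 lay near these shares.

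Other genes of the pathway were taken from lists by role, and a few genes, such as Il6 and Tgfb1, stand on more than 1 list. Values for Fos, Fosb, the ATF and MAF partners and the MAP kinases were not analysed here. Of 16 ligands and receptors known to feed AP-1, 9 were above 0 and 8 above the noise bound on all arrays. The cytokine genes Il1b and Il6 and the growth factor genes Fgf2 and Pdgfa exceeded the bound on 0 of 6 arrays. Of 15 textbook AP-1 targets, 11 were above 0 and 8 above the bound on all arrays, and the proteases Mmp3 and Mmp9 exceeded it on 0 arrays. Of all 223 probes, 78.5% were above 0 and 58.3% above the bound on all arrays, and 13.5% exceeded it on 0 arrays. Neither list was thus detected more often than the array as a whole. The targets Fn1, the matrix protein fibronectin, and Fabp4, a fatty acid carrier, were measured on all arrays at log2 levels of 2.28 ± 0.59 and 2.18 ± 0.58 (SD, n = 6).

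AP-1 targets stayed closer to Jund than to Fosl2 across the arrays. The log2 ratio to Jund had the smaller SD for 10 of 11 targets, against 109 of 173 kept probes (63.0%). This was not particular to Jund: the median SD over the 11 targets was 0.59 to Jun, 0.73 to Jund and 1.09 to Fosl2. The exception was Plau, the urokinase gene, at 0.81 to Jund and 0.65 to Fosl2. The adhesion receptor Cd44 had an SD of 0.77 to Jund and 1.699 to Fosl2, and its relative intensity ranged 13.1-fold, from replicate 6 to replicate 1. Hmox1, a haem-degrading enzyme of the stress response, ranged 10.04-fold between the same arrays (0.84 and 1.64), and the cell cycle inhibitor Cdkn1a 16.1-fold with values under the bound set to it (0.87 and 1.81). The most even target was Tgfb1, a growth factor gene (1.51-fold), followed by Plau (2.04-fold with values under the bound set to it), Vegfa, the endothelial growth factor (2.24-fold), and Timp1, a protease inhibitor (2.27-fold). The count of 10 was the same under quantile normalization and without replicates 1 and 6. This count was added after values were seen. On the median-centred scale, 167 of 173 kept probes had r of opposite sign with Jund and with Fosl2, so such a split was not particular to targets. A link of the targets to either subunit was not tested.

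Among ligands and receptors, 3 of 9 were closer to Jund and 6 to Fosl2, while 63.0% of all kept probes were closer to Jund. The median SD over these 9 genes was 0.62 to Jun, 0.92 to Jund and 0.56 to Fosl2. Egf, the epidermal growth factor gene, had an SD of 0.37 to Fosl2 and 1.33 to Jund. The FGF receptor Fgfr1 had 0.45 and 0.92, and was closer still to Jun at 0.42. Pdgfb, a platelet-derived growth factor chain, was closer to Jund (0.47) than to Fosl2 (1.23). The split moved to 5 and 4 without replicates 1 and 6. Of 6 myogenic transcription factors 5 were closer to Jund, against the same 63.0% of kept probes, with Myf6, the factor of mature fibres, nearest at 0.36. The remaining one was Srf, serum response factor, at 1.10 to Jund and 0.80 to Fosl2; it was highest on replicate 6. Without replicates 1 and 6 all 6 of these factors, Srf included, were closer to Jund.

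**Figure D4:**
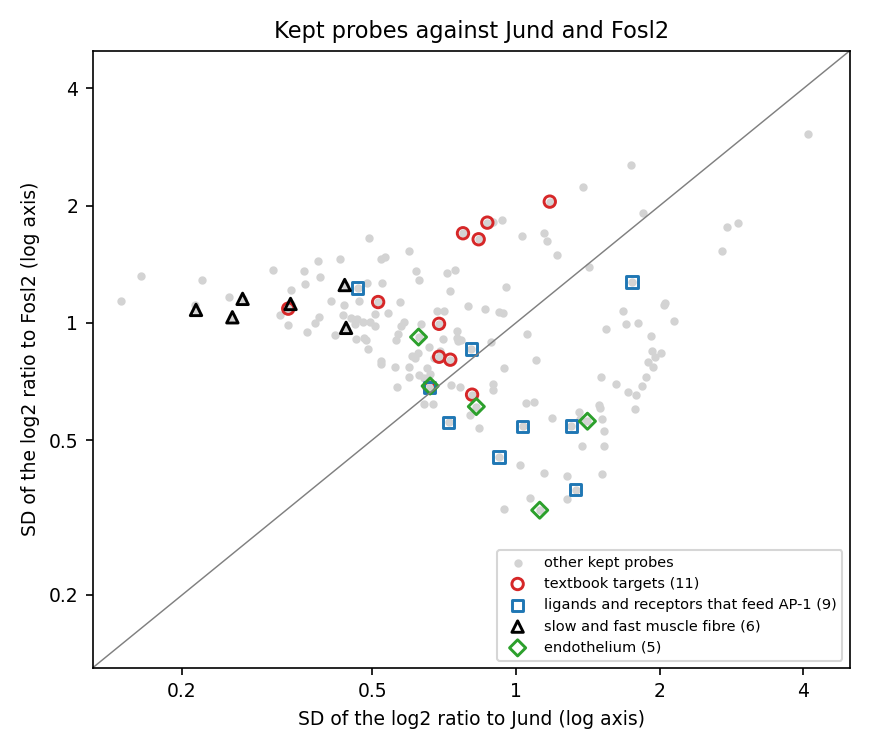
SD over the 6 arrays of the log2 ratio of each kept probe to Jund (horizontal) and to Fosl2 (vertical), both on log axes, with 1 point for each probe, listed genes as open symbols and a grey line of equality. Points above the line are closer to Jund: 10 of 11 targets and 6 of 6 muscle fibre genes, against 3 of 9 ligands and receptors and 109 of 173 kept probes.

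Muscle fibre markers stayed closer to Jund than to Fosl2, less so under quantile normalization, and endothelial markers were divided. All 6 measured of 10 listed fibre genes (Myh7, Myh2, Myh1, Myh4, Mb and Des) were above the bound on every array, so the labelled tissue's own genes were present throughout. Their summed relative intensity ranged from 151 on replicate 6 to 410 on replicate 1, and 6 of 6 were closer to Jund than to Fosl2, or 4 of 6 under quantile normalization. Of all kept probes, 63.0% were closer to Jund, or 61.8% under quantile normalization, so the count of 4 of 6 lay near that share. All 5 measured of 6 endothelial genes were above the bound, and their sum ranged from 7.35 on replicate 1 to 14.3 on replicate 5, the arrays on which Fosl2 was lowest and highest. Pecam1, already named as nearest to Fosl2, was also lowest and highest there, at log2 levels of 1.53 and 2.98. It was the brightest of the 5 probes (mean log2 2.02) and so weighed heavily in the sum. The others were not highest on replicate 5: Kdr and Flt1 were highest on replicate 6, and Tek and Cdh5 on replicate 4. Of the 5 endothelial genes, Pecam1, Flt1 and Cdh5 were closer to Fosl2 and Kdr and Tek to Jund. On the median-centred scale their r with Fosl2 was 0.84, 0.73, 0.33, -0.24 and -0.38 in that order (median 0.33). The median SD of the log2 ratio over these 5 genes was 0.45 to Jun, 0.83 to Jund and 0.61 to Fosl2. The sum of 3 of 5 fibroblast genes ranged from 4.35 on replicate 6 to 10.2 on replicate 3. That of 2 of 5 adipocyte genes ranged from 4.36 on replicate 5 to 7.53 on replicate 1. A single bright probe weighed heavily in each sum. Fn1 (mean log2 2.28) was lowest on replicate 6 and highest on replicate 3, and Fabp4 (2.18) was highest on replicate 1. The dimmer genes differed: Pdgfra and Pparg were highest on replicate 6, and Pdgfrb on replicate 5. Of 6 myeloid markers only Il1b was analysed, and it was at or below the bound on all arrays. The part of fibre and endothelial RNA in the Jund and Fosl2 patterns was not tested.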

How the data were processed

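The deposited table holds 1 intensity for each of 223 probes on 6 arrays. What the authors did to obtain these intensities (scanner, background method, normalization) is not given in the sources used here. Probe names come from the platform annotation. The members and gene lists were chosen with earlier results of these data known, and the count of genes closer to Jund than to Fosl2 was added after values were seen. Probes above 0 on all 6 arrays were kept (175), and log2 values were centred on each array's median over them, with no pseudocount. For a gene with 2 probes the brighter one was used. All pairs of kept probes were tested by exact two-sided permutation over 720 pairings, with Benjamini-Hochberg adjustment over all 15225 pairs; the script was tested on simulated data. Named genes were the members, the listed genes and, for each member above 0 on all arrays, the 3 genes with the smallest SD of the log2 ratio. Motifs were searched in RefSeq promoter windows. Alternatives were deposited units, quantile normalization, scaling to 28S, stricter centring, a pseudocount, other noise bounds and left-out arrays. Python 3.11.15, numpy 2.4.6 and pandas 2.3.3 were used. With 6 arrays and no counts, the number of arrays limits the precision.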

Additional observations from a re-analysis of the deposited data

Results flagged for a closer look

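Of 11 sets of 6 values examined (4 members and 6 ratios between members on the log2 scale, and Junb in deposited units), 1 held a sample far from the others. For Junb, the gap between replicate 1, at -0.0036, and its nearest neighbour made up 0.791 of the whole range, above the critical value of Dixon's test. All 6 values lie within the noise bounds of their arrays, and the bound of replicate 1, 0.0144, is the widest. Chance flags about 1 in 20 such sets.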

How the results depend on the processing

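Jun, Jund and Fosl2 stayed above the noise bound on 6 arrays and Junb on 0 with a doubled bound and with the highest relative bound; Fosl1 went from 4 arrays to 3 with the doubled bound. The SDs depended on scaling for the Jun genes: without scaling they were 1.02 for Jun and 1.47 for Jund, and scaled to 28S they were 0.78 and 1.19. The SD of the log2 ratio of Jund to Fosl2, 1.22, lay between 0.91 and 1.37 with any 1 replicate left out, and was 1.14 under quantile normalization. Correlations changed sign in 11 cases, and the cause was not tested. Without scaling, r with Fosl2 was 0.74 for Jun, 0.57 for Jund and 0.56 for Fosl1, and scaled to 28S 0.52, 0.18 and 0.25. Under quantile normalization Jun gave -0.031 with Jund, -0.046 with Fosl1 and 0.17 with Fosl2. Jun and Fosl2 gave 0.15 without replicates 1 and 6, and -0.84 to 0.19 with any 1 replicate left out. Of the 3 nearest genes, 1 was shared by Pearson's r for Jun, for Fosl1 and for Fosl2, 1 under quantile normalization for Jun, and 0 for Fosl1 with probes above the bound alone. The other 177 recomputed values kept their direction and side of the threshold, or moved by less than the spread. No paired analysis was possible because all arrays belong to 1 group.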
